A study of Mus musculus with 4 samples.

Results

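The genes described here write, maintain and erase DNA methylation: Dnmt1, Dnmt3a, Dnmt3b, Dnmt3l, Uhrf1, Tet1, Tet2, Tet3 and Tdg, 9 of 21281 autosomal protein-coding genes in GENCODE M1. They were chosen by name, from their function, and their own methylation was read from 5 kb upstream of each gene to its end. Whole-genome bisulfite sequencing had been carried out on mouse colonic epithelium of strain C57 of newborns (P0, postnatal day 0) and of pups at the close of suckling (P21, postnatal day 21). At each age, Lgr5-EGFP+ intestinal stem cells (ISCs) and Lgr5-EGFP-/EpCAM+ differentiated cells (DIF) were sorted from offspring of Lgr5-EGFP-CreER knock-in mice, in which EGFP marks cells with an active Lgr5 locus, and wild-type mice. According to the methods, EGFP-positive offspring were pooled at P21 but litters at P0, so that DIF P0 may include cells of littermates without the knock-in. The paper describes mosaic Cre expression from this allele and EGFP-negative crypts in adult mice, so DIF may also include unlabelled stem cells. The 4 libraries (ISC P0, DIF P0, ISC P21 and DIF P21) each held DNA pooled from several animals, with 1 library per group and no replicates. Tests of read counts between 2 libraries therefore compare those libraries, not the ages or the populations, and a level is an average over the cells and alleles of a pool, so that a change within cells and a change in their mixture cannot be told apart.

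DNA methyltransferases add a methyl group to cytosines, in mammals mostly at CpG sites. Dnmt1 copies the pattern to the new strand after replication and is brought to hemimethylated sites by Uhrf1. Dnmt3a and Dnmt3b methylate unmodified DNA, and Dnmt3l is a catalytically inactive partner that stimulates them, best known from germ cells. Tet1, Tet2 and Tet3 oxidise 5-methylcytosine, and the glycosylase Tdg removes the more oxidised forms so that repair can restore an unmodified cytosine. Active promoters rich in CpGs are commonly unmethylated, whereas transcribed gene bodies are commonly methylated. Bisulfite sequencing does not separate 5-methylcytosine from 5-hydroxymethylcytosine, the first product of the Tet enzymes, so every level below is the sum of both.

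Each library held between 1023427645 and 1188114423 cytosine calls in CpG context, with a median of 16 to 25 calls per CpG. The genome was divided into 200-bp bins, and a bin was used when it held at least 2 CpGs and had at least 10 calls in all 4 libraries, which left 4076373 autosomal bins, 1575 of them in the 9 genes. Promoters of 8 of 9 epithelial marker genes were under 20% methylated in every library, the exception being Krt20 (51.4% to 55.4%), whereas none of 8 immune marker promoters was (61.7% to 89.0%). The endothelial markers had 1 of 4 promoters under 20% (Kdr), the mesenchymal markers 3 of 5 and the stem cell markers 3 of 4, in each library.

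At their main starts, 6 of the 9 genes were under 15% methylated in all 4 libraries and 3 were above 80%. The main start is that of the GENCODE transcript with the longest coding sequence, and the promoter is 1 kb to either side. A level is the share of methylated calls, with a Wilson 95% interval that covers counting error only and treats calls as independent. Dnmt3a had the lowest promoter level of the main starts, except in DIF P0 where Tdg was lower, at 0.461% in ISC P0, 0.823% in DIF P0, 1.30% in ISC P21 and 0.702% in DIF P21. For Dnmt1 the promoter levels in the same order were 2.97%, 2.85%, 5.12% and 3.54%, and for Uhrf1 they were 4.09%, 2.02%, 5.37% and 2.55%. Tdg stood at 2.63%, 0.805%, 1.95% and 0.899%. Dnmt3b, at 9.24%, 7.0%, 7.98% and 7.39%, and Tet3, at 13.9%, 7.15%, 12.7% and 8.87%, were near the median promoter of all genes, which was 12.1%, 8.27%, 12% and 8.79%. The methylated starts were those of Dnmt3l, Tet1 and Tet2.

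**Figure D1:**
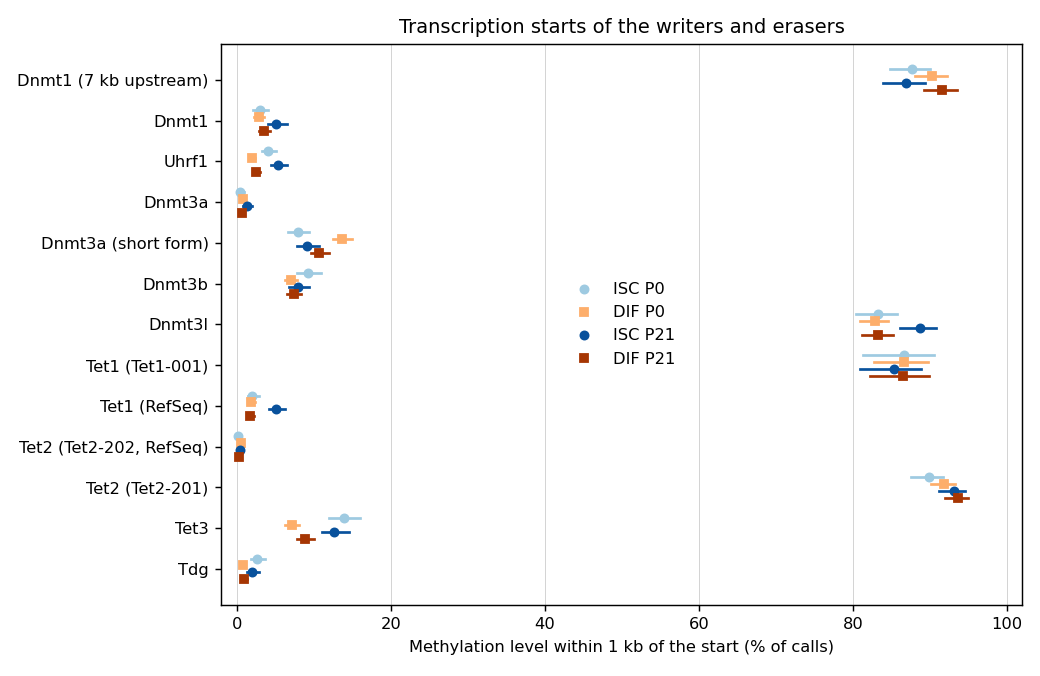
Methylation level within 1 kb of each transcription start (horizontal axis, % of calls), with circles for ISCs, squares for differentiated cells, light colours for P0, dark colours for P21, and bars for Wilson 95% intervals. The main starts of Dnmt1, Uhrf1, Dnmt3a, Dnmt3b, Tet3 and Tdg and the RefSeq starts of Tet1 and Tet2 lie under 15%, whereas Dnmt3l, Tet1-001, Tet2-201 and the upstream Dnmt1 start lie above 80%.

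For Tet1 and Tet2 the high level held at the main GENCODE start but not at the RefSeq start. RefSeq places the start of Tet1 at chr10:62350072 (mm9, minus strand), 11794 bp inside the GENCODE transcript Tet1-001, in its first intron and within a stretch of 9 bins and 100 CpGs whose level was 1.63% in ISC P0, 1.05% in DIF P0, 2.50% in ISC P21 and 1.11% in DIF P21. Within 1 kb of the Tet1-001 start the levels were 86.6%, 86.6%, 85.3% and 86.5%, against 2.05%, 1.88%, 5.15% and 1.70% within 1 kb of the RefSeq start. The lead transcript of Tet2 in GENCODE, Tet2-201, likewise starts inside the gene, and levels there were 89.9%, 91.8%, 93.1% and 93.6%. At the upstream start of Tet2-202, chr3:133207354, which is also the RefSeq start, they were 0.137%, 0.591%, 0.466% and 0.338%, under those of the Dnmt3a promoter in each library. All 16 RefSeq promoter sequences of the 9 genes (build GRCm38.p6) matched mm9 exactly once, which gave the mm9 positions used here.

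The 250 bases before the RefSeq start of Tet1 are shown because they are the unmethylated sequence that the GENCODE annotation places inside an intron. In all sequences the strand is that of the gene, the build is mm9, and capitals mark CpGs, the only letters to which the levels refer. This sequence spans chr10:62350073-62350322 on the minus strand and its CpGs, 15 in number, together stood at 2.18%, 1.92%, 6.50% and 4.11%.
Tet1 before the RefSeq start: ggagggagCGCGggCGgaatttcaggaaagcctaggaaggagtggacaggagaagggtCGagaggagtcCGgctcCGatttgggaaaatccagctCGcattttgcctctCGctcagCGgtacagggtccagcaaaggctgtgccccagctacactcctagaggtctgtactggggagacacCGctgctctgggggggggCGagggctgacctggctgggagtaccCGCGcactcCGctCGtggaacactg
The highest level of any single CpG of this stretch was 25%, and 0% was found at 1 or more of them in each library.

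Just upstream of this unmethylated stretch, the bin chr10:62350401-62350600 read 31.4% in ISC P0, 41.3% in DIF P0, 62.7% in ISC P21 and 49.2% in DIF P21. This gain between ages was called in ISCs (31.3 points, 2-sided Fisher's exact test, adjusted p = 0.00656); the bin is singled out here for its position, after its values were seen. Within 1 kb of the RefSeq start the difference between ages was 3.10 points in ISCs (95% interval 1.85 to 4.37) and -0.18 in differentiated cells (-0.77 to 0.43), and at P21 DIF minus ISC was -3.45 points (-4.64 to -2.40). The called bin lies in this window and held most of its methylated calls in ISCs. Without it, an alternative chosen after the data were seen, the level was 0.671% in ISC P0 and 1.66% in ISC P21, a difference of 0.99 points (0.23 to 1.78), and DIF minus ISC at P21 was -0.88 points (-1.65 to -0.26).

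**Figure D2:**
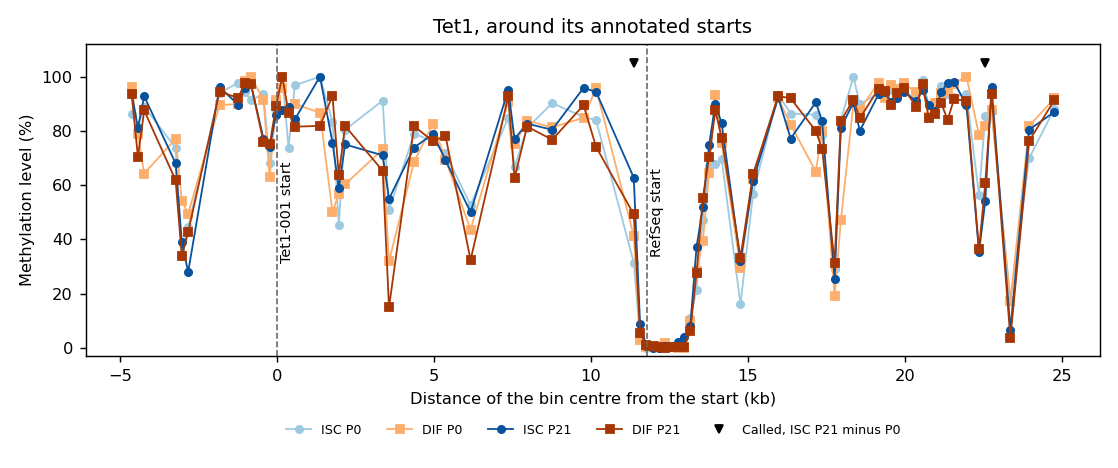
Methylation level (vertical axis, %) of 200-bp bins of Tet1 in the 4 libraries against the distance of the bin from the Tet1-001 start (horizontal axis, kb), with dashed lines at the 2 annotated starts and black triangles over bins called in ISC P21 against ISC P0. Levels are high around Tet1-001 and fall to between 1.05% and 2.50% in the 9 bins at the RefSeq start, with 1 called gain at the edge of that stretch.

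Dnmt3l was methylated at every annotated start. Its promoter stood at 83.2% in ISC P0, 82.8% in DIF P0, 88.7% in ISC P21 and 83.3% in DIF P21, and its alternative starts lay between 72.3% and 84.9%. The higher level in ISC P21 amounted to 5.46 points over ISC P0 (95% interval 1.89 to 9.0), and DIF P21 minus ISC P21 was -5.35 points (-8.37 to -2.15), with no single bin called. The 151 bases before the RefSeq start, chr10:77504881-77505031 on the plus strand, hold 4 CpGs that together read 97.3%, 89.6%, 92.9% and 90.6%, and they are shown as the contrast to the Tet1 sequence.
Dnmt3l before the RefSeq start: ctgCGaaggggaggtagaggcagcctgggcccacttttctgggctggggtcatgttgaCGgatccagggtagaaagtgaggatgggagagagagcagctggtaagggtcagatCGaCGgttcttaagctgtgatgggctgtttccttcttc
This sequence overlaps Aire on the other strand and lies in intron 1 of another transcript, Dnmt3l-007. The gene was not methylated throughout. A bin of the first intron, chr10:77506601-77506800, was unmethylated, at 0.870%, 8.70%, 1.44% and 0.575%. The 4 CpG island bins of the Dnmt3l window together read 2.21%, 3.62%, 2.05% and 3.32%.

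The widths of the unmethylated stretches, counted as adjoining bins under 20% at a start, differed between the genes. Dnmt3a had 3000 bp and Dnmt1 1800 bp in all 4 libraries. Uhrf1 had 3400 to 3600 bp in 3 libraries and 1800 bp in DIF P21. There a bin near the inner end read 21.1%, just over the cut, and Uhrf1 had 0 bins called between ages in differentiated cells. Dnmt3b and Tdg had 1600 to 1800 bp and Tet3 1200 to 1600 bp, depending on the library. Dnmt3a has a second unmethylated start at chr12:3891728 (Dnmt3a-005 and Dnmt3a-201), which gives the short form of the enzyme that lacks the amino-terminal part. Here levels were 7.91% in ISC P0, 13.7% in DIF P0, 9.14% in ISC P21 and 10.7% in DIF P21, and DIF P0 exceeded ISC P0 by 5.79 points (95% interval 3.84 to 7.64), or by 2.19 points as the mean of the bin levels. A further RefSeq start of Dnmt1, 7015 bp upstream of the main one, was methylated, at 87.6%, 90.3%, 86.9% and 91.6%.

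Among the other alternative starts in GENCODE, Tet1-002, a non-coding transcript, had low levels, at 8.17% in ISC P0, 5.23% in DIF P0, 7.61% in ISC P21 and 4.40% in DIF P21. The start of Tet1-202 and Tet1-201 was methylated, at 92.7% to 94.1%. So was that of Tet1-003, Tet1-004 and Tet1-005, at 80.75% to 90.6% on 3 bins. The latter differed between ages by -9.89 points in differentiated cells (95% interval -13.7 to -6.25) and by -3.16 points in ISCs (-7.64 to 1.30). A pair of coding Dnmt3a transcripts, named after their values were seen, starts in regions of intermediate level, of which 4 and 5 bins could be used. At Dnmt3a-007 levels were 55.4% in ISC P0, 47.8% in DIF P0, 74.8% in ISC P21 and 61.6% in DIF P21, with differences between ages of 19.4 points in ISCs (95% interval 11.9 to 26.7) and 13.9 points in differentiated cells (7.87 to 19.7). At Dnmt3a-010 they were 51.5%, 51.0%, 70.3% and 60.9%, with differences of 18.8 (10.5 to 26.7) and 9.91 points (3.22 to 16.5). As means of the bin levels the differences were 15.1 and 10.8 points at Dnmt3a-007 and 16.9 and 13.2 points at Dnmt3a-010. A further coding start of intermediate level, Dnmt3a-009, lay between 66.6% and 72.7% and differed by -1.38 points in ISCs (-7.76 to 5.06) and -3.71 points in differentiated cells (-8.55 to 1.16). At the last exons, levels lay between 68.5% (Dnmt3l) and 96.1% (Tet2), and that of Tet2 was 96.1% in ISC P0 and 90.4% in ISC P21, a difference of -5.70 points (-9.08 to -2.52). In differentiated cells the last exon of Dnmt3l read 76.4% at P0 and 68.5% at P21, a difference of -7.90 points (-14.1 to -1.71), that of Tet1 differed by 2.63 points (0.94 to 4.27) and that of Dnmt3a by 1.92 points (0.16 to 3.67), which as the mean of bins were 1.43 and 0.26 points. The intervals of the other age differences of last exons included 0. Gene bodies of Uhrf1 (80.2% to 81.2%), Tet2 (80.7% to 82.7%) and Tdg (90.4% to 92.9%) covered these ranges over the 4 libraries, and the median body of all genes lay between 80.4% and 81.0%.

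The first comparison asked where the 9 genes differed between ages in ISCs. A bin was called when the 2-sided Fisher's exact test of its methylated and unmethylated calls, adjusted over all bins, gave p under 0.05 and the levels differed by more than 15 percentage points. Of the 1575 bins, 40 were called in ISCs (2.54%), 13 with more and 27 with less methylation at P21. The background over all bins was 2.56% in either direction, 1.07% for gains and 1.48% for losses, so the share in these genes was close to that of the genome. In differentiated cells 51 bins were called (3.24%), 29 gains and 22 losses, beside 2.86%, 0.992% and 1.86% over all bins. Over the windows of protein-coding genes 2.88% were called in ISCs and 3.24% in differentiated cells. The median difference over the 1575 bins was 0.22 points in ISCs and 0.19 in differentiated cells, beside 0 and -0.074 over all bins. Several calls of a bin can come from 1 read and are then not independent. With the calls of each bin divided by its number of CpGs, as an approximation to reads, 1 bin was called in ISCs (in Tet3) and 1 in differentiated cells (in Tet2), beside 0.077% and 0.209% of all bins. Nearly all calls named below are thus lost on that count. Of 34 called windows named for the largest differences of each comparison, 19 lost the call when libraries were thinned to the lowest one, and 6 of the 29 that could be read with bins shifted by 100 bp lost it there; those 6 are stated beside the values.

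By number, Dnmt3a had the most called bins in differentiated cells, mainly gains, and Tet3 and Dnmt3a had the most in ISCs, Tet3 mainly with losses and Dnmt3a mainly with gains. By share of a gene's bins, the order in ISCs was Tet3 (4.41%), Tet2 (3.92%) and Dnmt3a (3.22%), and in differentiated cells Dnmt3a (6.43%), Dnmt3b (4.07%), Tet1 (3.57%) and Tet2 (3.27%). Dnmt3a had 9 gains and 2 losses in ISCs and 17 gains and 5 losses in differentiated cells, of 342 bins. Tet3 had 1 gain and 11 losses in ISCs and 3 gains and 4 losses in differentiated cells, of 272 bins. Tet2 had 2 gains and 4 losses of 153 bins in ISCs, and Tet1 had 1 gain and 5 losses of 252 bins. In differentiated cells Tet1 had 3 gains and 6 losses, more calls than Tet3 (2.57% of its bins), and Tet2 had 2 gains and 3 losses. Dnmt1 had 0 gains and 2 losses of 186 bins in ISCs (1.08%), Dnmt3b 0 and 2 of 123 (1.63%) and Uhrf1 0 and 1 of 87 (1.15%). Over all bins 2.56% were called in ISCs, 1.48% as losses. Dnmt3l and Tdg had 0 calls between ages in either population, although the unadjusted p was under 0.05 in 5 of 88 bins of Dnmt3l and 2 of 72 of Tdg in ISCs and in 8 and 6 in differentiated cells. Uhrf1 had 0 in differentiated cells, with 11 of 87 bins at an unadjusted p under 0.05. Such a p was found in 12.8% of all bins in ISCs and 14.1% in differentiated cells. At the shares of all bins called, 2.56% in ISCs and 2.86% in differentiated cells, genes of this size would hold few calls.

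**Figure D3:**
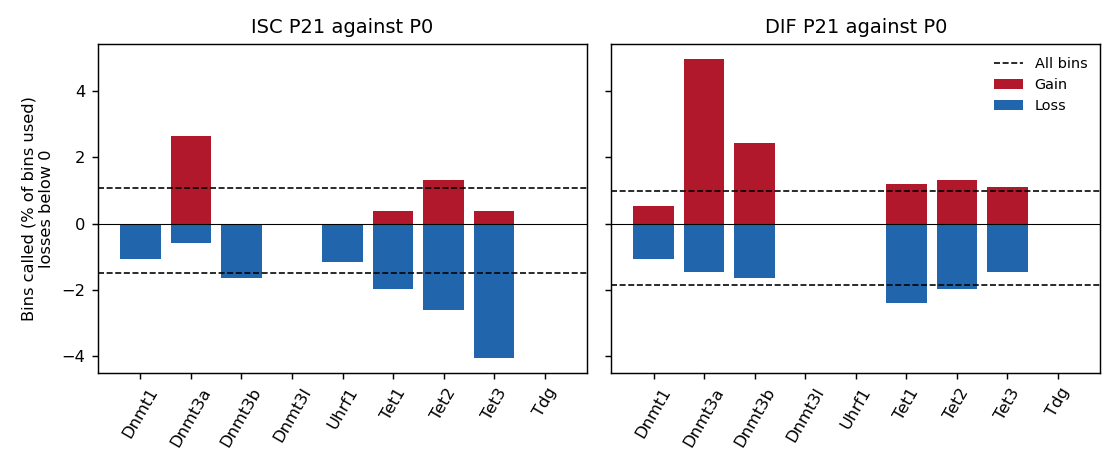
Share of each gene's bins called between ages (vertical axis, % of bins used, gains above and losses below 0) in ISCs (left) and differentiated cells (right), with dashed lines at the shares of all bins. Above the dashed lines are gains in Dnmt3a and Tet2 and losses in Dnmt3b, Tet1, Tet2 and Tet3 for ISCs, and gains in Dnmt3a, Dnmt3b, Tet1, Tet2 and Tet3 and losses in Tet1 and Tet2 for differentiated cells, and Dnmt3l and Tdg have no bar.

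Of 77 promoter bins at the main starts of the 9 genes, 1 was called in ISCs, a loss at the edge of the Tet3 promoter (1.3%). In differentiated cells 0 were called. Over the promoter bins of all protein-coding genes the shares were 2.43% and 2.75%. The RefSeq starts of Tet1 and Tet2 are not among the 77 bins. Within 1 kb of them, 1 bin (Tet1) and 0 bins (Tet2) were called in ISCs, and 0 in differentiated cells. Gene bodies outside alternative promoters and last exons held 32 of the 40 calls in ISCs and 43 of the 51 in differentiated cells, and they also held 73.4% of the bins of the 9 genes. The share of body bins called was 2.77% in ISCs and 3.72% in differentiated cells, close to the 2.54% and 3.24% over all bins of these genes. CpG island bins, 86 in number, had 0 calls in any comparison, with an unadjusted p under 0.05 in 5 to 8 of them. Of the 150844 island bins of the genome, 13149 to 20087 had such a p, depending on the comparison. Over all island bins of the genome 1.77% were called between ages in ISCs and 1.54% in differentiated cells, shares at which 86 bins would hold few calls. Of the bins called between ages, 12 were called in both populations, all in the same direction. They made up 30% of the ISC calls and 23.5% of the DIF calls, beside 36.3% and 32.5% over all bins. The 2 populations of an age may come from the same animals, which the methods do not state, and a difference between pools then cannot be told apart from a difference between ages. The 12 bins comprised 5 in Dnmt3a (3 gains, 2 losses), 2 losses each in Tet1, Tet2 and Tet3, and 1 loss in Dnmt1.

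Dnmt3a, the gene with the most gains, had a higher pooled level over its body at P21 in both populations. It was picked for those gains, and the same bins enter the counts and levels below, which therefore describe the gene and add no separate support. Of 342 bins, an unadjusted p under 0.05 was found with higher levels at P21 in 46 and with lower levels in 13 in ISCs, and in 60 and 17 in differentiated cells. In either direction these were 17.3% and 22.5% of its bins, beside 12.8% and 14.1% of all bins and 13.4% and 15% of those in windows of protein-coding genes. Shares by direction were not counted over all bins at this p. The level of the gene body was 71.9% in ISC P0 and 75.3% in ISC P21, a difference of 3.41 points (95% interval 2.51 to 4.31), above 90.5% of genes. In differentiated cells it went from 70.4% to 73.0%, by 2.52 points (1.80 to 3.24), above 88.8% of genes, and by 4.37 points as the mean of the bin levels. The median gene body differed by -0.14 and -0.43 points.

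Several of the largest gains of Dnmt3a lay in the first intron, within 5 kb of the start. The bin chr12:3809401-3809600, 2470 bp from the start, read 31.3% in ISC P0, 21.8% in DIF P0, 75.3% in ISC P21 and 64.9% in DIF P21. Both P21 libraries lay above both P0 libraries. The gain of 44.1 points in ISCs (95% interval 27.9 to 57.1) had an adjusted p of 4.17e-05 by Fisher's exact test. In differentiated cells this bin and the next, chr12:3809401-3809800, rose together from 37.0% to 73.0%. The first of these bins is shown because it had the largest gain of Dnmt3a in ISCs; it lies on the plus strand and holds 4 CpGs.
Dnmt3a first intron: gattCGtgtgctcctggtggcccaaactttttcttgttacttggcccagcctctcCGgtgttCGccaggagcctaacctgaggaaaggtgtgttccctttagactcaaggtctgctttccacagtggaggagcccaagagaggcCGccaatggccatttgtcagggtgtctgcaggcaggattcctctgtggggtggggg
Single CpGs of this sequence read between 10.5% and 63.6% in ISC P0 and between 57.1% and 81.8% in ISC P21, on 6 to 25 calls each. In differentiated cells they read between 12.5% and 37.2% at P0 and between 0% and 86.5% at P21, and the first CpG was lower at P21, at 13.0% of 23 calls and 0% of 9.

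Further along the same intron, chr12:3810601-3810800 read 2.38% in ISC P0, 8.70% in DIF P0, 45.5% in ISC P21 and 46.7% in DIF P21. It was called in ISCs (43.1 points, Fisher's exact test, adjusted p = 0.000248), a call lost with thinned calls. The bin chr12:3810001-3810200 read 66.7%, 33.9%, 72.7% and 88.9%, with a gain of 55 points called in differentiated cells (Fisher's exact test, adjusted p = 0.000174), and of 30.9 points, still called, with shifted bins. Here DIF P0 alone was low, and whether the age difference itself differed between populations was not tested.

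Towards the end of the first intron, chr12:3834401-3834600 rose from 29.4% to 65.9% in differentiated cells (Fisher's exact test, adjusted p = 1.36e-08), and ISCs read 45.2% and 64.6%. The bin chr12:3829401-3829600 rose from 46.2% to 81.0% in differentiated cells, beside 75% and 76.2% in ISCs, on as few as 12 calls. With shifted bins this gain was 17.5 points and was not called, nor was it called with thinned calls. Next to the start of the short form, in intron 6, chr12:3892801-3893000 read 53.8% in ISC P0, 32.5% in DIF P0, 62.5% in ISC P21 and 84.9% in DIF P21. The gain in differentiated cells was 52.4 points (95% interval 36.3 to 64.2; Fisher's exact test, adjusted p = 3.92e-07), and 27.2 points, still called, with shifted bins. The bin chr12:3835001-3835200, singled out after its values were seen because it reaches exon 2 with the start of the coding sequence, rose in both populations, from 29.6% to 66.7% in ISCs and from 44.2% to 63.4% in differentiated cells. The 2 losses called in both populations also lay in the first intron, 8470 and 10670 bp from the start, and were singled out in the same way. At chr12:3815401-3815600 levels fell from 30.4% to 4.08% in ISCs and from 32.7% to 8.93% in differentiated cells, and at chr12:3817601-3817800 from 53.6% to 24.8% and from 50.9% to 30.6%.

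**Figure D4:**
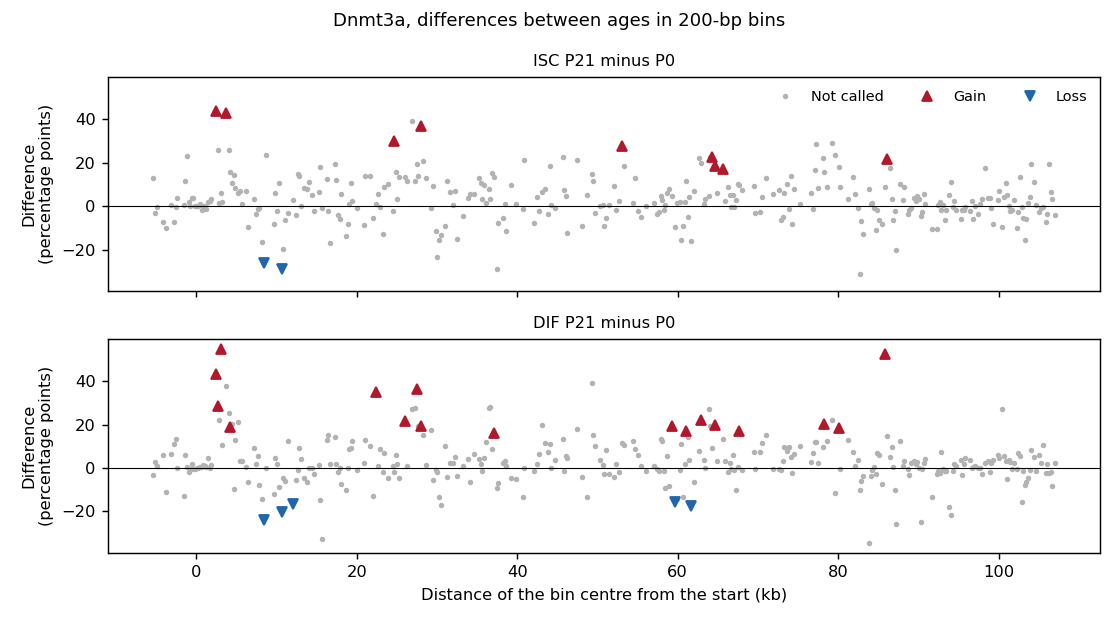
Difference in level between P21 and P0 (vertical axis, percentage points) of each 200-bp bin of Dnmt3a against its distance from the Dnmt3a-001 start (horizontal axis, kb), in ISCs (top) and differentiated cells (bottom), with called gains as upward and called losses as downward triangles. The 9 gains and 2 losses of ISCs and the 17 gains and 5 losses of differentiated cells spread over the gene, and none falls in the unmethylated start.

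Dnmt3b, the other de novo methyltransferase, had 1.63% of its bins called in ISCs and 4.07% in differentiated cells. The bin chr2:153482801-153483000 in intron 2 read 73.0% in ISC P0, 70.4% in DIF P0, 19.4% in ISC P21 and 48.4% in DIF P21, and its loss of 53.6 points was called in ISCs (95% interval of the difference -69.1 to -30.4; Fisher's exact test, adjusted p = 0.00119). Both P21 libraries lay under both P0 libraries. With bins shifted by 100 bp the difference in ISCs was -19.1 points and was not called, nor was it called with thinned calls (-44.4 points). In differentiated cells Dnmt3b had 3 gains and 2 losses of 123 bins. Its body level stayed between 82.3% and 84.3% in the 4 libraries.

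For the maintenance pair, Dnmt1 and Uhrf1, the largest difference lay upstream of the main start of Dnmt1. The bin chr9:20761601-20761800, at -4383 bp from that start, read 44.1% in ISC P0, 53.6% in DIF P0, 0% in ISC P21 and 15% in DIF P21. It lies between the main start and the RefSeq start at -7015 bp. The loss was called in ISCs (44.1 points, Fisher's exact test, adjusted p = 7.52e-05) and in differentiated cells (38.6 points, adjusted p = 0.00489). With thinned calls the call in differentiated cells was lost and that in ISCs was kept. The sequence is shown because it changed in both populations with only 2 CpGs, on the minus strand.
Dnmt1 upstream: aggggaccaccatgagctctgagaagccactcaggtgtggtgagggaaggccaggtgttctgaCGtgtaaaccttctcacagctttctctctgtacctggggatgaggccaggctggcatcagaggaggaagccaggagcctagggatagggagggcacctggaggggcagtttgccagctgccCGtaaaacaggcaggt
In ISC P21 0 of 44 calls were methylated there, which by the rule of 3 calls in the total allows a level of up to 6.82%. The P0 libraries differed by CpG, on 15 to 50 calls each. The first CpG read 21.1% in ISC P0 and 73.7% in DIF P0, and the second 73.3% and 46.0%. In DIF P21 they read 13.3% and 16%. Dnmt1 body levels were 88.0%, 87.1%, 87.1% and 86.9%. In Uhrf1 the called bin was chr17:56459601-56459800, which spans part of coding exon 14. It read 95.1% in ISC P0, 88.9% in DIF P0, 72.9% in ISC P21 and 95.5% in DIF P21, so that ISC P21 alone was low. The loss between ages in ISCs was 22.2 points, and at P21 differentiated cells exceeded ISCs by 22.6 points (Fisher's exact test, adjusted p = 0.0103); both comparisons use the ISC P21 library. With shifted bins neither was called, at -8.93 points between ages and 10.1 between populations, and with thinned calls the difference between populations was not called.

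Tet3, the gene with the most losses in ISCs, was less methylated in ISC P21 than in ISC P0 at several places of its second intron. The run of 3 bins chr6:83363001-83363600, about 28369 bp from the start, read 62.6% in ISC P0, 48.6% in DIF P0, 15.3% in ISC P21 and 25.4% in DIF P21, on 195 to 370 calls. The loss of 47.2 points in ISCs (95% interval of the difference -54.9 to -38.6) had adjusted p-values of 2.51e-13 to 0.00306 by Fisher's exact test over the 3 bins, and 1 of these was the bin that stayed called in ISCs after division by CpGs. In differentiated cells 2 of the 3 bins were called, with losses from 49.8% to 25.6%. The middle bin, chr6:83363201-83363400 on the minus strand, is shown because its level fell from 54.5% to 1.90% in ISCs and from 39.0% to 10.2% in differentiated cells.
Tet3 second intron: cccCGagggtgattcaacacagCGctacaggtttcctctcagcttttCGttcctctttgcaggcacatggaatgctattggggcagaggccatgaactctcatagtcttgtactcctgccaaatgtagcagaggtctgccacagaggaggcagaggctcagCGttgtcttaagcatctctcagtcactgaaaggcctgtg
Each of its 4 CpGs stood between 20% and 73.1% in ISC P0 and between 0% and 5.88% in ISC P21. In differentiated cells they stood between 11.4% and 61.5% at P0 and between 2.13% and 22.5% at P21, and the first CpG was about equal, at 16.2% and 16.1%.

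A second run of Tet3, 4 bins at chr6:83368201-83369000, read 28.0% in ISC P0, 17.2% in DIF P0, 6.14% in ISC P21 and 11.6% in DIF P21, and was called in ISCs. It is the longest run of the 9 genes, and was named for that after its values were seen. Between both runs, chr6:83364801-83365000 fell from 81.8% to 38.1% in ISCs (Fisher's exact test, adjusted p = 0.0471), and differentiated cells read 64.1% and 37.5%. This call was lost with 1 CpG per bin and with thinned calls. Upstream of the start, chr6:83396401-83396600 fell from 64.2% to 23.1% in ISCs (Fisher's exact test, adjusted p = 0.000282) and read 46.9% and 37.5% in differentiated cells. With shifted bins the difference in ISCs was -17.8 points and was still called. This bin also overlaps B230319C09Rik on the other strand. In differentiated cells the Tet3 bins with the largest differences were gains, chr6:83351601-83351800 from 66.7% to 97.9% and chr6:83380801-83381000 from 57.9% to 88.7%, where ISCs read 84.8% and 78.6%, and 74.2% and 84.3%. The gain at chr6:83380801-83381000 was not called with thinned calls. Whether the age difference itself differed between populations was not tested at these bins.

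**Figure D5:**
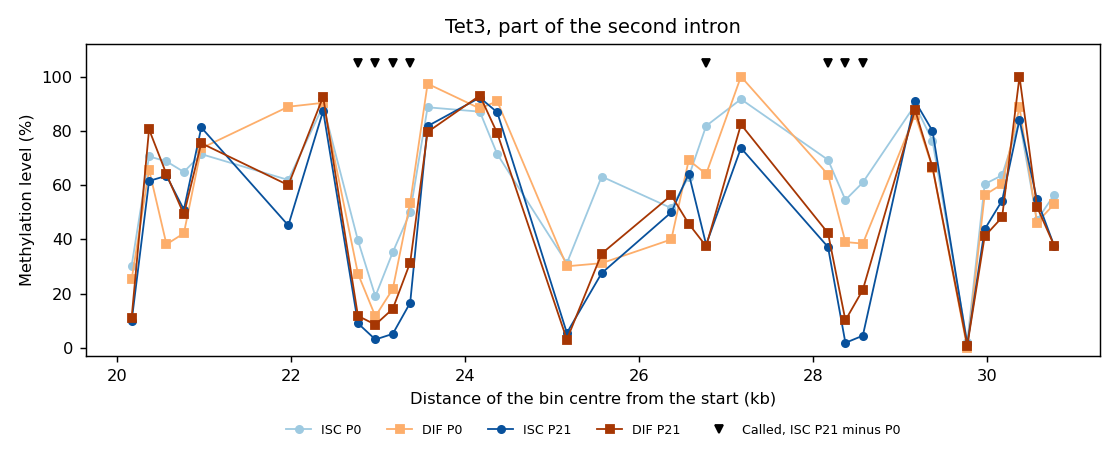
Methylation level (vertical axis, %) of 200-bp bins in part of the second intron of Tet3 in the 4 libraries, against distance from the Tet3-001 start (horizontal axis, kb), with black triangles over bins called in ISC P21 against ISC P0. The runs near 23 and 28 kb dip in all libraries and dip furthest in ISC P21, to 6.14% and 15.3% over the called bins.

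At the inner edge of the Tet3 promoter, chr6:83390601-83390800, 969 bp from the start, read 34.1% in ISC P0, 18.3% in DIF P0, 4.17% in ISC P21 and 3.54% in DIF P21. This was the bin of the main promoters called between ages in ISCs (30 points lower at P21, Fisher's exact test, adjusted p = 2.64e-05). It was singled out for its position, and is shown because the unmethylated stretch at the start reached 200 bp further in ISC P21 than in ISC P0, over this bin; the sequence runs along the minus strand.
Tet3 promoter edge: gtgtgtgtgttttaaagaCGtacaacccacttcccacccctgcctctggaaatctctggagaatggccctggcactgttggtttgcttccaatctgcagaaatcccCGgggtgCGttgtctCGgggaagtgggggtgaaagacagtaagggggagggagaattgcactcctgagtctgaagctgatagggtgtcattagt
The level of the whole Tet3 promoter in ISCs went from 13.9% to 12.7% (difference -1.20 points, 95% interval -3.87 to 1.42) and in differentiated cells from 7.15% to 8.87% (1.72 points, 0.35 to 3.11). As the mean of bins these differences were -3.50 and 0.42 points, and with 2000 bp around the start that in differentiated cells turned to -0.52 points. The Tet3 gene body differed between ages by -2.09 points in ISCs (95% interval -3.06 to -1.12) and by -2.21 points in differentiated cells (-2.99 to -1.42), which as the mean of the bin levels were -3.20 and -0.71 points.

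In Tet2 the largest differences lay in the long first intron of Tet2-202, between the unmethylated start and Tet2-201. The bin chr3:133179201-133179400 read 87.9% in ISC P0, 87.5% in DIF P0, 32.1% in ISC P21 and 31.4% in DIF P21, on 53 to 86 calls. The loss was 55.8 points in ISCs (95% interval of the difference -68.2 to -39.1; Fisher's exact test, adjusted p = 1.09e-07) and 56.1 points in differentiated cells (adjusted p = 1.31e-10). The 2 populations lay within 1 point of each other at each age, and this was the bin that stayed called in differentiated cells after division by CpGs. Its sequence, on the minus strand, holds 3 CpGs.
Tet2 first intron: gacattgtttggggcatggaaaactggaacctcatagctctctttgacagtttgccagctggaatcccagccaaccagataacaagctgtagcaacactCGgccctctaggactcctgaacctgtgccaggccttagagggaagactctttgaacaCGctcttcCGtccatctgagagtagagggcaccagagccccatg
Single CpGs read 66.7% to 100% at P0 and 0% to 50% at P21 over both populations. A bin reaching coding exon 4, chr3:133143201-133143400, was also lower in both populations, from 85.3% to 59.9% in ISCs and from 88.8% to 67.5% in differentiated cells; it was named after its values were seen, being 1 of the 12 shared calls, and with shifted bins its call in differentiated cells was lost.

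At a pair of Tet2 bins the ISC P0 library stood apart from the other three. The bin chr3:133193801-133194000 read 94.4% in ISC P0, 27.6% in DIF P0, 26.3% in ISC P21 and 33.3% in DIF P21, on 18 to 29 calls. The bin chr3:133195201-133195400 read 13.0%, 64.1%, 62.9% and 65.7%. Both were called between ages in ISCs (68.1 points lower and 49.9 points higher at P21) and between populations at P0 (66.9 points lower and 51.2 points higher in DIF; Fisher's exact test, adjusted p = 0.00729 and 5.91e-06), and both comparisons use the ISC P0 library. With thinned calls both calls between populations were lost and both between ages were kept. In differentiated cells chr3:133196601-133197000 rose from 42.9% to 73.0%, beside 46.4% and 60.3% in ISCs, a gain not called with thinned calls.

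In Tet1 the largest difference was at chr10:62294401-62294600 in intron 6, at 61.5% in ISC P0, 60.7% in DIF P0, 0% in ISC P21 and 0% in DIF P21. Its calls were few at P0, 13 in ISCs and 28 in differentiated cells, and in each library all but 0 to 3 calls came from 1 of its 2 CpGs. At P21 the calls were 36 and 35, and 0 methylated calls of so few allow, by the same rule of 3 calls, a level of up to 8.33% and 8.57%. The losses had adjusted p-values of 0.000381 and 3.59e-06 by Fisher's exact test. Both calls were lost with thinned calls. The sequence, on the minus strand, is shown because it had the largest difference of Tet1 in both populations.
Tet1 sixth intron: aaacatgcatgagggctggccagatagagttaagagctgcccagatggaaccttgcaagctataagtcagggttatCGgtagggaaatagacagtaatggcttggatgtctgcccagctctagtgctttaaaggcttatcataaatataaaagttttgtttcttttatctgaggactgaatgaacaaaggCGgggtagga
The bin chr10:62272801-62273000, in the last exon, fell from 100% to 61.9% in ISCs (Fisher's exact test, adjusted p = 0.00599) and read 97.5% and 81.3% in differentiated cells, the last on 16 calls. Its call in ISCs was lost with thinned calls. At chr10:62343801-62344000, in intron 1, DIF P0 was low, with 84.1% in ISC P0, 47.3% in DIF P0, 81.2% in ISC P21 and 83.7% in DIF P21. It was called as a gain in differentiated cells and as a difference between populations at P0, and both comparisons use the DIF P0 library.

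The remaining comparisons asked where the 9 genes differed between ISCs and differentiated cells of 1 age. At P0, 6 of 1575 bins were called (0.381%), 2 higher and 4 lower in differentiated cells, beside 0.508% of all bins (0.288% higher, 0.22% lower). At P21, 4 were called (0.254%), 1 higher and 3 lower, beside 0.182% (0.0711% and 0.111%). With the calls divided by CpGs, 0 were called at either age, and an unadjusted p under 0.05 was found in the undivided calls of 170 bins at P0 and 134 at P21. Thinned to the lowest library, 0 of the 6 calls at P0 and 1 of the 4 at P21 stayed called.

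Besides the Tet2 pair and the Tet1 bin, the calls at P0 were single intronic bins. Dnmt3a was lower in differentiated cells at chr12:3836801-3837000, with 83.7% in ISCs and 46.3% in differentiated cells, and P21 levels were 72.2% and 45.5%; with thinned calls the difference at P0 was -22.2 points and was not called. It was higher at chr12:3811601-3811800, with 5.60% in ISCs and 27.1% in differentiated cells, and P21 levels were 20.2% and 17.5%. Tet3 was lower in differentiated cells at chr6:83371001-83371200, with 68.8% and 38.2%, and P21 levels of 63.4% and 64.0%, a call lost with shifted bins (-24.5 points).

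At P21 the called bins besides that of Uhrf1 were lower in differentiated cells. Tet1 read 54.9% in ISCs and 15% in differentiated cells at chr10:62358201-62358400, in intron 1, beside 50.8% and 31.9% at P0 (Fisher's exact test at P21, adjusted p = 0.00419). With shifted bins this difference was -20.2 points and was not called. Dnmt3a read 92.3% and 50% at chr12:3901001-3901200 in intron 16, on 22 calls in differentiated cells. Tdg had its single call of any comparison here, chr10:82107601-82107800 in intron 7, with 100% of 60 calls in ISCs and 79.3% of 58 in differentiated cells (Fisher's exact test, adjusted p = 0.048). At P0 the same bin read 96.7% and 78.3%, so that differentiated cells were lower at both ages. The call at P21 was lost with 1 CpG per bin, with more than 30 points required, with thinned calls (-13.0 points) and with shifted bins (-16.7 points).

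Over whole regions, differences between populations depended on how calls were pooled. The Tet1 body read 72.6% in ISC P0, 67.5% in DIF P0, 72.1% in ISC P21 and 67.7% in DIF P21, and that of Dnmt3l 64.4%, 59.0%, 65.9% and 59.4%. Pooled over calls, DIF P0 minus ISC P0 was -5.04 and -5.41 points, but as the mean of the bin levels it was -0.77 and -0.026 points. The pooled level weights each bin by its calls and the mean does not. In the Dnmt3l body the 4 CpG island bins, at 2.21% and 3.62%, held 723 of 3712 calls in ISC P0 and 2046 of 7605 in DIF P0. In the Tet1 body the 9 bins at the RefSeq start, at 1.63% and 1.05%, held 1775 of 15257 and 4685 of 26121. Body levels without these bins were not computed, and the cause of the divergence was not tested. For the Tet3 promoter DIF minus ISC at P0 was likewise -6.72 points (95% interval -8.97 to -4.64) and -3.73 as the mean of bins, and at P21 it was -3.80 points when pooled and 0.19 as the mean of bins.

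Of 40 other genes of the DNA methylation pathway (readers, cofactor enzymes, demethylation and repair factors), 105 of 3473 bins were called between ages in ISCs (36 gains, 69 losses) and 135 in differentiated cells (49 gains, 86 losses). These were 3.02% and 3.89% of the bins, beside 2.56% and 2.86% of all bins and 2.88% and 3.24% in windows of protein-coding genes. Between populations 18 were called at P0 (0.518%, beside 0.508%) and 1 at P21 (0.0288%, beside 0.182%). The genes with the most calls between ages in ISCs were Usp7, a deubiquitinase that binds Dnmt1 and Uhrf1, with 3 gains and 14 losses of 298 bins, and Zbtb38, which binds methylated DNA, with 8 gains and 8 losses of 254. Idh1, whose product supplies the cofactor of the Tet enzymes, had 0 gains and 8 losses of 84 bins, Apobec1, a cytidine deaminase, 2 and 5 of 61, and Mbd2, a reader of methylated CpGs, 1 and 4 of 157. In differentiated cells their counts of gains and losses were 3 and 15 (Usp7), 12 and 8 (Zbtb38), 0 and 10 (Idh1), 0 and 5 (Apobec1) and 3 and 5 (Mbd2). Promoter levels over the 4 libraries were 91.2% to 93.3% for Usp7, 34.8% to 49.8% for Zbtb38, 0.628% to 4.60% for Apobec1, and under 2% for Idh1 and Mbd2. For these genes only the main start was read, and at Tet1 and Tet2 such a start was methylated where the RefSeq start was not.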

How the data were processed

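Whole-genome bisulfite data of 4 libraries of mouse colon epithelium were used, 1 per group, each from pooled animals. The deposited files hold, per cytosine, counts of methylated calls and of all calls and a methylation fraction, which the authors made with Bismark and Bowtie against mm9; as to versions and duplicate removal: not given in the sources used here. Counts of both strands were summed per CpG of mm9 and per 200-bp bin, and the deposited fraction was not used. Bins needed at least 2 CpGs and 10 calls in all 4 libraries. Each bin was tested with the 2-sided Fisher's exact test and Benjamini-Hochberg adjustment over 4076373 bins. It was called at an adjusted p under 0.05 and more than 15 points. A check on simulated counts drew calls independently, so it does not cover calls that share a read. Regions pooled all calls, with Wilson levels and Newcombe intervals of differences, and no test. Islands were 500-bp windows with 25 or more CpGs. Depth was 16 to 25 median calls per CpG, so a bin of few calls resolves large differences only. Genes and lists were chosen with earlier results of these data known. Up to 12 runs of called bins per comparison, those with the largest differences, and the 5 pathway genes with most calls in ISCs were named. Python 3.11.15, numpy 2.4.6, scipy 1.17.1, numba 0.67.0 and pandas 2.3.3 were used; RefSeq promoters were matched by sequence. Alternatives changed the call minimum, CpG minimum, threshold, binning, depth and independence of calls.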

Additional observations from a re-analysis of the deposited data

Results flagged for a closer look

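At the start of the retained-intron transcript Dnmt3b-010, in the body of Dnmt3b, P21 minus P0 of the level within 1 kb was -4.33 points for ISCs, whereas for differentiated cells it was 2.11 points (4.02 as the mean of bins). For each population the window holds 1 called bin, and these are different bins. In ISCs it was chr2:153491201-153491400, with -22.1 points, and in differentiated cells chr2:153491801-153492000, with 17.2 points. Both calls were lost with bins shifted by 100 bp. The interval of each difference lies off 0 and the directions are opposite, but the difference between the populations itself was not tested. Levels were 94.2% in ISC P0, 90.5% in DIF P0, 89.8% in ISC P21 and 92.6% in DIF P21.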

How the results depend on the processing

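The counts of called bins in the 9 genes (40 and 51 between ages in ISCs and differentiated cells, 6 and 4 between populations at P0 and P21) stayed within 1.5 times with 20 calls, with 1 CpG per bin and without bins over 1000 calls. With 4 CpGs per bin, the last 3 counts became 28, 3 and 1. With more than 30 points required, they were 23 in ISCs, 12 in differentiated cells and 2 between populations at P21. Above 15 points with no test, the 4 counts were 189, 174, 131 and 108. Thinned to the lowest library, they were 22, 17, 0 and 1; with calls divided by CpGs, 1, 1, 0 and 0. With bins shifted by 100 bp, the counts between populations were 10 and 2.

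As the mean of bin levels, 18 of 72 promoter and body differences changed sign, 4 of them with a pooled interval off 0: the Dnmt3b promoter between populations at P0 (1.10 points), the Uhrf1 promoter (2.58) and the Tet3 promoter (0.19) between populations at P21, and the Tet2 body between ages in differentiated cells (0.071). With 2000 bp around the start, the Tet3 promoter differed by -0.52 points between ages in differentiated cells. The cause was not tested. No called run reversed its direction under any alternative run, but most alternatives reuse the same calls and could hardly reverse it. The loss at chr9:20749201-20749400 (Dnmt1) in differentiated cells ranged from -25.8 to 0 points over the alternatives. No paired analysis was possible because each group had 1 library, so that no replicate numbers pair libraries within a comparison, and no library could be left out for the same reason. A model of age and population over the 4 libraries was not run. Intervals and tests cover counting error only. They treat calls as independent, so where several calls come from 1 read the intervals are too narrow and the p-values too small. No region interval was computed with calls divided by CpGs. PCR copies of a molecule were not separable, and 1 library per group sets no limit on the spread between animals.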
